A study of Homo sapiens with 4 samples.

Results

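Autophagy delivers cytoplasmic material to the lysosome for degradation, and its machinery and cargo receptors were followed here as 38 genes in MCF10A, an established, non-tumorigenic cell line of human breast epithelium. The genes were chosen by symbol, as members of the initiation complex, the lipid kinase complex, the membrane supply proteins, the conjugation enzymes, the ATG8 proteins, the receptors and the fusion factors. They were 38 of the 19775 genes with a probe set of their own on the Affymetrix U133 Plus 2.0 array. Total RNA was hybridised to 4 arrays, with 1 colour and a biotin label. The control arrays (n = 2) held MCF10A cells with a control short hairpin RNA, and the arrays labelled double knockdown (n = 2) held MCF10A cells with hairpins against Cbl and Cbl-b, ubiquitin ligases that act on activated receptor tyrosine kinases and are encoded by CBL and CBLB. All cells grew in DFCI-1 medium and were collected during ordinary growth, with no starvation and no inhibitor of lysosomes named in the labels. The labels do not say whether the hairpin cells were clones or pools, nor whether the 2 samples of a group were grown as separate cultures. The p-values therefore cover the spread between these samples alone, and that spread may be technical.

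In autophagy, a kinase complex around ULK1 starts the process, a complex around the lipid kinase VPS34 (encoded by PIK3C3) marks the membrane with phosphatidylinositol 3-phosphate, and WIPI proteins read that mark. Enzymes related to those of ubiquitin transfer then attach ATG8 proteins such as LC3B to the growing membrane. Receptors such as p62 bind both ubiquitylated cargo and ATG8 proteins, and the closed autophagosome fuses with a lysosome. RNA levels do not measure the flow of material through this pathway, which depends largely on protein modification and turnover.

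CBL fell on the arrays labelled double knockdown and CBLB did not. CBL had intensities of 125.9 and 84.4 in the control and of 31.1 and 29.0 on the arrays labelled double knockdown. This was a 2.59-fold fall (log2 change -1.37 ± 0.15 SE, limma adjusted p = 0.00138). As the mean of its probe sets, with those below the brightness minimum included, the log2 change was -0.41. CBLB had 64.3 and 70.0 in the control and 94.8 and 99.5 on the labelled arrays, a 1.36-fold rise (log2 change 0.45 ± 0.09 SE, limma adjusted p = 0.0148). Its call was lost without double knockdown replicate 1 or 2 (limma adjusted p up to 0.133). The transcript of CBLB thus went against the label, and every direction below is that of the arrays labelled double knockdown against the control arrays. Of 9 markers of mammary epithelial cells, 7 had a probe set of their own and all 7 were above the brightness minimum. Among them KRT14, a keratin of basal cells, had a log2 change of -1.62, KRT5 of -0.73, KRT18, a keratin of luminal cells, of 0.53 and EPCAM of 0.40, each called by limma. ITGB4, EGFR and CDH1 were not called (log2 change -0.37, -0.08 and 0.01). The summed intensity of the 7 was 28858 and 28492 in the control and 17665 and 17340 on the labelled arrays, and KRT14 and KRT5, which fell, made up most of it. Of 10 markers of leukocytes, endothelium and fibroblasts, 8 had a probe set of their own and 4 reached the brightness minimum, with a summed intensity of 324 and 325 in the control and of 244 and 251 on the labelled arrays. Most of that sum was DCN, which fell, and COL1A1, whereas the endothelial marker PECAM1 read between 30.2 and 36.6 and the T cell marker CD3E between 17.9 and 19.1. The part of these marker changes in the results below was not tested. In bulk RNA, fewer cells of a type and less RNA per cell cannot be told apart.

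The promoters of 3 called genes are shown first, because the genes differ in direction and carry different motifs: WIPI1, which rose most, ATG3, which fell most, and GABARAPL1, which rose among the ATG8 genes. Each is the 250 bases before the RefSeq start of the gene in the GRCh38.p14 assembly, written 5' to 3' on the strand of the gene. Capitals mark matches, on either strand, to GGGGCGGGG (a GC box of the kind bound by Sp1), to CCAAT (the box of NF-Y, which reads ATTGG on the other strand), to TCACGTG (an E-box with the base that TFEB prefers, which holds the E-box CACGTG) and to TGACGTCA (the element of CREB and ATF factors).
WIPI1: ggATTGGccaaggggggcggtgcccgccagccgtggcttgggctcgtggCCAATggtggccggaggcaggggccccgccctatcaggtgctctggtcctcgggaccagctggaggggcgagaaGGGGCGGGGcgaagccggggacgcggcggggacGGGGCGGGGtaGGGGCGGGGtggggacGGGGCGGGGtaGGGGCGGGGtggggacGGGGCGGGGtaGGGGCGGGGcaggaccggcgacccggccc
ATG3: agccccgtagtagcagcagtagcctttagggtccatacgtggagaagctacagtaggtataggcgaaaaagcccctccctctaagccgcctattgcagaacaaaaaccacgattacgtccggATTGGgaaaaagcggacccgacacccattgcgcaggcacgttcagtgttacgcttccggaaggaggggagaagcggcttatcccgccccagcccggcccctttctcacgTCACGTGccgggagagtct
GABARAPL1: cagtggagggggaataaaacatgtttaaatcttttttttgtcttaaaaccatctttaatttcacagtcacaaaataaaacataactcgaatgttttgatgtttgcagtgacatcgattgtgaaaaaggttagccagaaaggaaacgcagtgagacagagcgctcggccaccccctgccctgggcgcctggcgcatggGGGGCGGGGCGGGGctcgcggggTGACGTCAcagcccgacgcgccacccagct

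The WIPI1 promoter lies at chr17:68457497-68457746 on the minus strand, has 79.6% G and C, and holds 7 copies of GGGGCGGGG between 127 and 29 bases before the start beside 2 CCAAT boxes. The ATG3 promoter, at chr3:112561963-112562212 on the minus strand, has 57.6% G and C and holds TCACGTG 19 bases before the start. The GABARAPL1 promoter, at chr12:10212627-10212876 on the plus strand, has 51.6% G and C and holds TGACGTCA 30 bases before the start, beside 2 overlapping copies of GGGGCGGGG. Of the 38 genes, 34 had a RefSeq promoter, among them 8 of the 9 genes called below. Over the 250 bases before and 50 bases after the start, CACGTG was in 2 of the 34 (ATG14 and ATG3) and in 7.43% of all 27305 promoters, and TCACGTG was in the same 2 and in 3.82% of all. GGGGCGGGG was in 12 of the 34, 35.3%, against 15.99% of all promoters, and in 3 of the 8 called. That motif, like CCAAT, TGACGTCA and the longer ATF6 element below, was chosen after the promoters were read. Its higher share is therefore a description and no test, and the background is all RefSeq promoters, not the genes tested here. CCAAT was in 12 of the 34, or 35.3%, and in 35.7% of all. TGACGTCA was in GABARAPL1 alone of the 34 and in 1.98% of all. TGACNNNGC, the core of the element of NRF2, was in 4 (ATG101, MAP1LC3B, CALCOCO2 and TECPR1) and in 13.6% of all, and GTAAACA, a FOXO element, was in CALCOCO2 and in 3.41% of all. None of the 34 held TGATGNAA, an element of ATF4 with a C/EBP partner (3.67% of all), TGACGTGG, an element of XBP1 and ATF6 (0.795%), or the longer element of ATF6 with NF-Y (0.0806%). Such a match, or its lack, describes letters in this window and says nothing of whether a factor binds there.

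All 38 genes had a probe set of their own and all were bright enough to be tested. With limma, 9 were called at an adjusted p under 0.05. Of the 38, 5 were higher, or 13.2%, where 9.40% of all 12965 genes tested were called higher. A further 4 were lower, or 10.5%, where 6.59% of all genes were called lower. The higher genes were WIPI1, RB1CC1, ATG13, GABARAPL1 and SQSTM1, and the lower ones ATG3, ATG7, BECN1 and WIPI2. The median log2 change of the 38 was 0.06 and that of all genes -0.01, and the median size of change without its sign was 0.146 against 0.138. Both arrays of one group lay above both of the other for 18 of the 38, with 11 higher and 7 lower, while 57.5% of all genes tested were apart in this way. WIPI1 and ATG3 changed by more than 0.5 on the log2 scale and the other called genes by less. The change of WIPI1 and of ATG3 kept its call in every alternative that gave a value, while SQSTM1 and WIPI2 lost theirs whichever of the 4 arrays was left out. With no brightness filter RB1CC1, SQSTM1, BECN1 and ATG7 were not called (limma adjusted p = 0.0624, 0.0549, 0.062 and 0.0578). With an added constant of 1 SQSTM1, BECN1 and WIPI2 were not (limma adjusted p = 0.0971, 0.0648 and 0.0909). The median difference between the arrays of a pair was 0.116 on the log2 scale for the 38 genes in the control and 0.0835 on the labelled arrays, beside 0.115 and 0.0878 for all genes. With 2 arrays a group, the number of arrays limits the precision of every value.

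**Figure D1:**
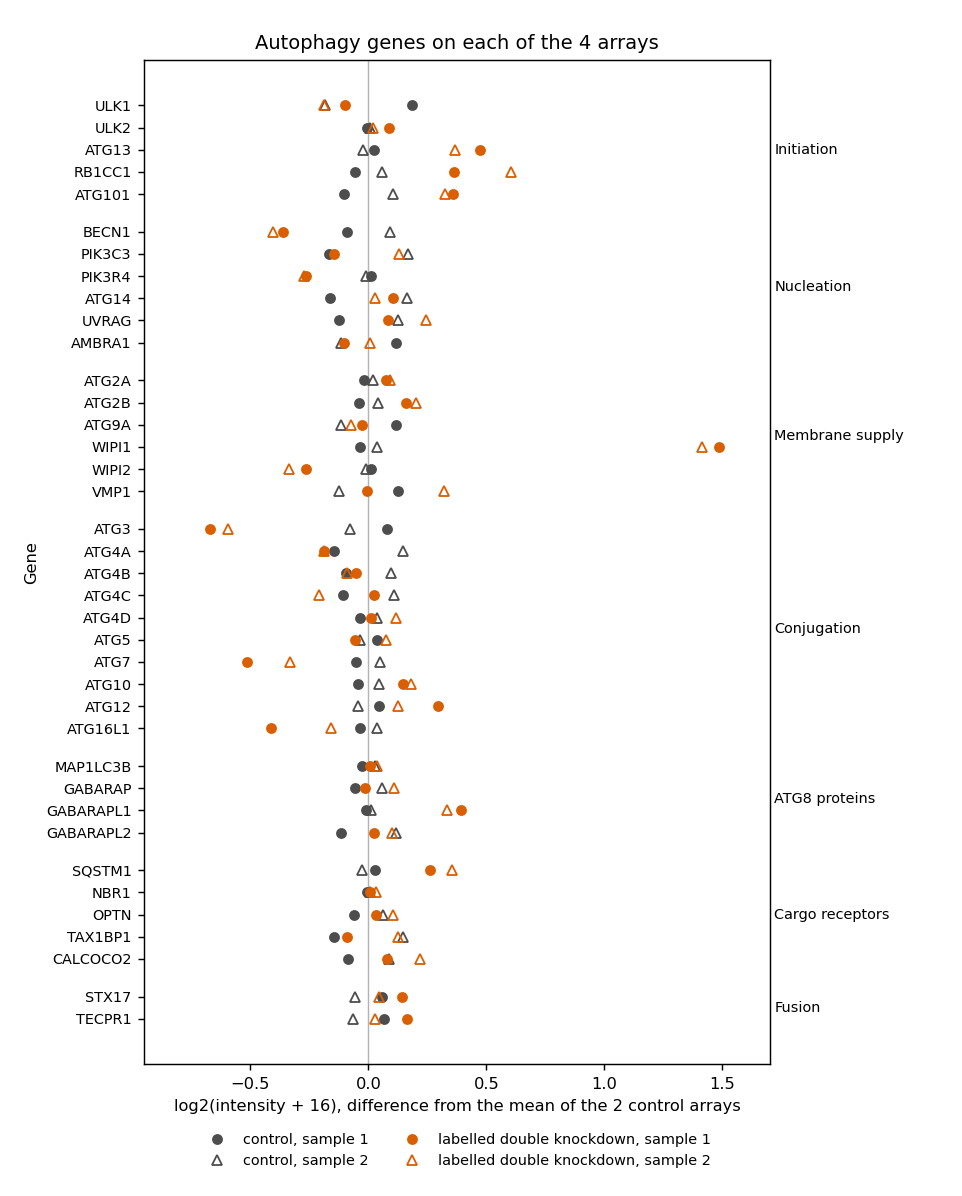
Value of each of the 38 autophagy genes on each of the 4 arrays, as log2(intensity + 16) minus the mean of the 2 control arrays (horizontal axis), grouped by role. Grey symbols are control arrays and orange symbols the arrays labelled double knockdown. WIPI1 stands far to the right on both labelled arrays, ATG3 and ATG7 to the left, and 20 genes have overlapping groups.

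The initiation complex was next compared by its subunits, 2 of which rose while the kinases themselves were not called. RB1CC1, also known as FIP200, is the large scaffold of the complex, and its intensities were 444 and 481 in the control and 599 and 711 on the labelled arrays. Both labelled arrays were above both control arrays, with means of 463 ± 26.3 and 655 ± 79.3 (SD, n = 2), and the rise was 1.40-fold (log2 change 0.48 ± 0.11 SE, limma adjusted p = 0.022). A second probe set of RB1CC1 gave 0.62 (limma p adjusted over all named probe sets = 0.0646, and 0.0837 for the brightest in that fit). ATG13, which links the kinase to FIP200, read 99.5 and 95.6 in the control and 141.8 and 130.4 on the labelled arrays. Its groups were apart as well, at 97.6 ± 2.76 and 136 ± 8.03 (SD, n = 2), a 1.34-fold rise (log2 change 0.42 ± 0.09 SE, limma adjusted p = 0.0178). The other probe sets of ATG13 gave smaller changes, 0.27 and 0.13 (limma p adjusted over all named probe sets = 0.108 and 0.357, and 0.0442 for the brightest in that fit). ATG101, the partner that stabilises ATG13, read 227 and 266 against 320 and 312, with the groups apart, but its log2 change of 0.34 ± 0.10 SE missed the threshold (limma adjusted p = 0.0539). It lay close to that threshold and was called in 7 of the 15 alternatives, at limma adjusted p = 0.0278 without control replicate 2 and between 0.0397 and 0.0497 with the stricter brightness filter, median centring, cyclic loess, the mean of the probe sets, no probe sets that may match several transcripts, or the replicate block. ULK1, the kinase, read 35.9 and 24.1 against 26.6 and 24.04, so the groups overlapped (log2 change -0.14, limma adjusted p = 0.511). ULK2, its close relative, read 40.9 and 41.4 against 44.7 and 42.0 (log2 change 0.05, limma adjusted p = 0.725), a small difference with the groups apart. The probe sets of ULK2 differed in sign: a dimmer one had a log2 change of -0.17 and the dimmest of 0.22, neither called (limma p adjusted over all named probe sets = 0.17 and 0.0901). The median log2 change of the 5 initiation genes was 0.34, beside -0.01 for all genes tested. Of the 5, 2 were called higher (40%, against 9.40% of all genes tested). Groups lay apart, in either direction, for 57.5% of all genes tested. The call of RB1CC1 was lost without control replicate 1 (limma adjusted p = 0.0741) or double knockdown replicate 2 (0.189), and that of ATG13 without double knockdown replicate 1 (0.158) or 2 (0.09).

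In the VPS34 lipid kinase complex, BECN1 fell and no other subunit was called. BECN1, the scaffold Beclin 1, read 449 and 512 in the control and 369 and 358 on the labelled arrays. The groups were apart, at 480 ± 44.8 and 364 ± 8.11 (SD, n = 2), and the fall was 1.30-fold (log2 change -0.38 ± 0.10 SE, limma adjusted p = 0.0332). A nearly as bright second probe set of the gene gave -0.34 (limma p adjusted over all named probe sets = 0.102, and 0.0801 for the brightest in that fit). PIK3R4, the regulatory subunit VPS15, read 135 and 133 against 109 and 108, with the groups apart and close within each pair, and its log2 change of -0.27 ± 0.08 SE missed the threshold (limma adjusted p = 0.0667). PIK3C3, the catalytic subunit, read 355 and 453 in the control and 361 and 439 on the labelled arrays, a spread within each group far wider than the difference between them (log2 change -0.01, 95% interval -0.33 to 0.31, limma adjusted p = 0.981). The partners that direct the complex differed by less than the spread as well. ATG14, which brings it to autophagosomes, had a log2 change of 0.07 (limma adjusted p = 0.772) and UVRAG, found in the endosomal form, of 0.16 (0.377). AMBRA1, which binds Beclin 1 and regulates it, had -0.05 (limma adjusted p = 0.814). Leaving out control replicate 2 ended the call of BECN1 (limma adjusted p = 0.0866), as did leaving out the first (0.149) or the second (0.211) labelled array.

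Among the proteins that supply and shape the membrane, WIPI1 rose and WIPI2 fell, although both encode propeller proteins that bind phosphatidylinositol 3-phosphate. WIPI1 read 85.0 and 90.3 in the control and 274.3 and 259.8 on the labelled arrays. The means were 87.7 ± 3.75 and 267 ± 10.2 (SD, n = 2), so the difference was many times the spread in either pair. The rise was 2.73-fold on the log2(intensity + 16) scale and 3.05-fold without the added constant (log2 change 1.45 ± 0.09 SE, 95% interval 1.25 to 1.65, limma adjusted p = 8.35e-05). Ordered by rise, WIPI1 was number 40 of the 12965 genes tested. A second probe set of WIPI1, of a type meant for 1 transcript, read 65.1 and 76.2 against 192.9 and 195.7, a log2 change of 1.28 (limma p adjusted over all named probe sets = 0.0121). WIPI2, which recruits the ATG16L1 complex, read 352 and 346 in the control and 288 and 273 on the labelled arrays, with means of 349 ± 4.12 and 281 ± 10.1 (SD, n = 2). This 1.23-fold fall just passed the threshold (log2 change -0.30 ± 0.08 SE, limma adjusted p = 0.0498). One further probe set of WIPI2 gave the same change, -0.30 (limma p adjusted over all named probe sets = 0.0949, and 0.057 for the brightest in that fit), and another -0.05 (0.798). The mean over all probe sets of WIPI2, with those below the brightness minimum (0.15 and 0.09) included, was not called (log2 change -0.08, limma adjusted p = 0.395). Its call was lost whichever array was left out, at limma adjusted p = 0.104 and 0.0771 without control replicate 1 and 2 and 0.194 and 0.317 without double knockdown replicate 1 and 2. The lipid transfer proteins ATG2A and ATG2B had log2 changes of 0.08 (limma adjusted p = 0.562) and 0.18 (0.205), with both labelled arrays above both controls. ATG9A, the scramblase of the vesicles that seed the membrane, had -0.05 (limma adjusted p = 0.801). VMP1, a scramblase of the endoplasmic reticulum, was dim on the 1 probe set naming it alone, at 34.4 and 26.3 against 30.0 and 41.6, and its groups overlapped (log2 change 0.16, limma adjusted p = 0.49). Probe sets naming VMP1 together with other genes were not used, so the level of the gene rests on that probe set.

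The conjugation enzymes held the largest fall of the 38 genes, that of ATG3, the enzyme that transfers ATG8 proteins to phosphatidylethanolamine. ATG3 read 1090 and 975 in the control and 641 and 676 on the labelled arrays. The means were 1033 ± 81.5 and 658.5 ± 25.3 (SD, n = 2), with the groups well apart, a 1.55-fold fall (log2 change -0.63 ± 0.09 SE, 95% interval -0.85 to -0.42, limma adjusted p = 0.00516). No second bright probe set was there to compare, since the other one of the gene lay below the brightness minimum. ATG7, the E1-like enzyme that activates both ATG8 proteins and ATG12, read 134 and 145 in the control and 93.0 and 107.8 on the labelled arrays. Its means were 140 ± 7.77 and 100 ± 10.5 (SD, n = 2), a 1.34-fold fall (log2 change -0.42 ± 0.10 SE, limma adjusted p = 0.0263). The probe sets of ATG7 differed in size: one gave -0.71 (limma p adjusted over all named probe sets = 0.0554, and 0.0763 for the brightest in that fit) and a dim one, of a type meant for 1 transcript, -0.06 (0.805). Leaving out control replicate 2 ended the call of ATG7 (limma adjusted p = 0.074), as did leaving out the first (0.21) or the second (0.0756) labelled array.

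The other enzymes and carriers of conjugation were not called. ATG16L1, which places the conjugation site on the membrane, read 35.4 and 37.9 against 23.5 and 31.2, with the groups apart (log2 change -0.29 ± 0.11 SE, limma adjusted p = 0.113). ATG12, the ubiquitin-like protein joined to ATG5, had a log2 change of 0.21 (limma adjusted p = 0.188), and a second probe set 0.30 (limma p adjusted over all named probe sets = 0.0584). ATG10, the E2-like enzyme of ATG12, had 0.16 (limma adjusted p = 0.252). ATG5 itself read 543 and 515 against 507 and 557, with the groups overlapping (log2 change 0.01, 95% interval -0.20 to 0.22, limma adjusted p = 0.972). Of the proteases that trim ATG8 proteins, ATG4A had a log2 change of -0.19 (limma adjusted p = 0.307), ATG4B of -0.07 (0.679), ATG4C of -0.09 (0.655) and ATG4D of 0.06 (0.696). ATG4A was at 76.3 and 76.5 on the labelled arrays, below both controls, and the other 3 proteases overlapped. Over the 10 genes of conjugation, 6 changes were negative and 4 positive, with a median of -0.08.

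**Figure D2:**
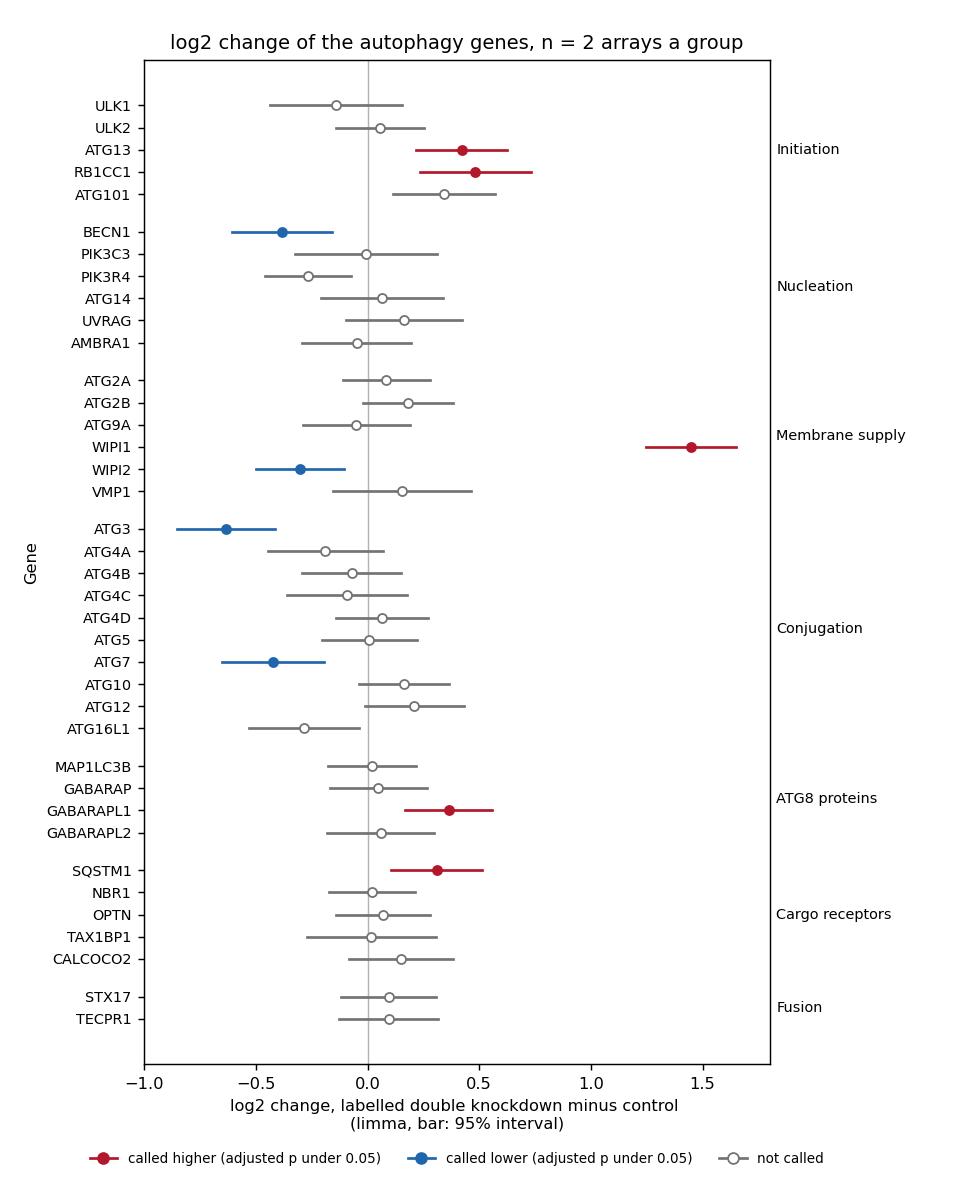
Log2 change of each of the 38 autophagy genes, arrays labelled double knockdown minus control (horizontal axis, n = 2 arrays a group), with its 95% interval from limma. Red points are the 5 genes called higher, blue points the 4 called lower and open points the 29 not called. WIPI1 at 1.45 and ATG3 at -0.63 lie farthest from 0.

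Of the 4 ATG8 genes, GABARAPL1 rose and the 3 others stayed uncalled. GABARAPL1 read 83.0 and 84.4 in the control and 114.8 and 109.7 on the labelled arrays. The pairs were tight, at 83.7 ± 1.00 and 112 ± 3.56 (SD, n = 2), and the rise was 1.29-fold (log2 change 0.36 ± 0.08 SE, limma adjusted p = 0.0261). A second probe set gave 0.15 (limma p adjusted over all named probe sets = 0.194, and 0.0405 for the brightest in that fit). MAP1LC3B, which encodes LC3B, the usual marker of autophagosomes, read 830 and 860 against 848 and 866, and its groups overlapped (log2 change 0.02, 95% interval -0.18 to 0.22, limma adjusted p = 0.91). The second probe set of MAP1LC3B read 415 and 348 against 476 and 500, a log2 change of 0.35 (limma p adjusted over all named probe sets = 0.146), so the probe sets of this gene differed in size. GABARAP had a log2 change of 0.05 (limma adjusted p = 0.788) and GABARAPL2 of 0.06 (0.76), with overlapping groups. Leaving out control replicate 1 ended the call of GABARAPL1 (limma adjusted p = 0.0608), as did leaving out the first (0.196) or the second (0.144) labelled array.

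Of the 5 cargo receptors, SQSTM1 rose. The changes of all 5 were positive on their brightest probe sets, as were those of 6218 of the 12965 genes tested. For NBR1 and TAX1BP1 they were near 0. SQSTM1, which encodes p62, read 1194 and 1150 in the control and 1409 and 1504 on the labelled arrays. The groups were apart, with means of 1172 ± 31.0 and 1457 ± 67.3 (SD, n = 2), and the 1.24-fold rise just passed the threshold (log2 change 0.31 ± 0.09 SE, limma adjusted p = 0.0499). A dimmer probe set of SQSTM1 read 118 and 132 against 186 and 200, a log2 change of 0.57 (limma p adjusted over all named probe sets = 0.0371, and 0.0668 for the brightest in that fit), while another pair, of a type meant for 1 transcript, gave 0.20 (0.279) and 0.04 (0.807). Its call was lost whichever array was left out, at limma adjusted p = 0.0754 and 0.105 without control replicate 1 and 2 and 0.171 and 0.327 without double knockdown replicate 1 and 2. CALCOCO2, which encodes NDP52, a receptor for bacteria and mitochondria, had a log2 change of 0.15 (limma adjusted p = 0.373). OPTN (optineurin), NBR1, a relative of p62, and TAX1BP1 had 0.07 (limma adjusted p = 0.674), 0.02 (0.913) and 0.02 (0.952). TAX1BP1 read 714 and 877 against 742 and 864 on its brightest probe set, a wide spread in both groups. Its dimmest probe set read 100.9 and 98.8 against 77.6 and 77.2, a log2 change of -0.31 (limma p adjusted over all named probe sets = 0.0458). The remaining one gave -0.21 (limma adjusted p = 0.256 in that fit), so the direction for this gene depends on the probe set.

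For fusion with lysosomes, neither STX17, the SNARE of the autophagosome, nor TECPR1, a tethering factor, was called. STX17 read 61.8 and 55.7 in the control and 66.5 and 61.0 on the labelled arrays (log2 change 0.09, limma adjusted p = 0.553), and TECPR1 had 0.09 (limma adjusted p = 0.565). The groups overlapped for both genes. Of the 29 genes not called, 27 had a 95% interval within 0.5 of no change on the log2 scale, and the others were ATG101 and ATG16L1.

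Several probe sets of one gene allowed a check within the arrays. The 38 genes had 101 probe sets, 83 of them above the brightness minimum. In 23 genes more than 1 probe set was that bright, and all had one sign in 14 and opposite signs in 9. In TAX1BP1 and ULK2 a probe set of opposite sign to the brightest had an unadjusted limma p under 0.05. Of the 9 called genes, 8 had several bright probe sets, none of them of opposite sign. All 9 rested on a probe set of a type that may match several transcripts, and after such probe sets were left out WIPI1 remained called, ATG7 (log2 change -0.06, limma adjusted p = 0.771), SQSTM1 (0.20, 0.22) and WIPI2 (-0.30, 0.0599) did not, and the other 5 gave no value. The type that may match several transcripts was taken from the name of the probe set, ending in _s_at or _x_at. Probe sets ending in _a_at, which may match several transcripts of 1 gene, were kept, among them a dim one of NBR1. Probe sets are different fragments of a transcript on the same arrays and are not replicates.

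**Figure D3:**
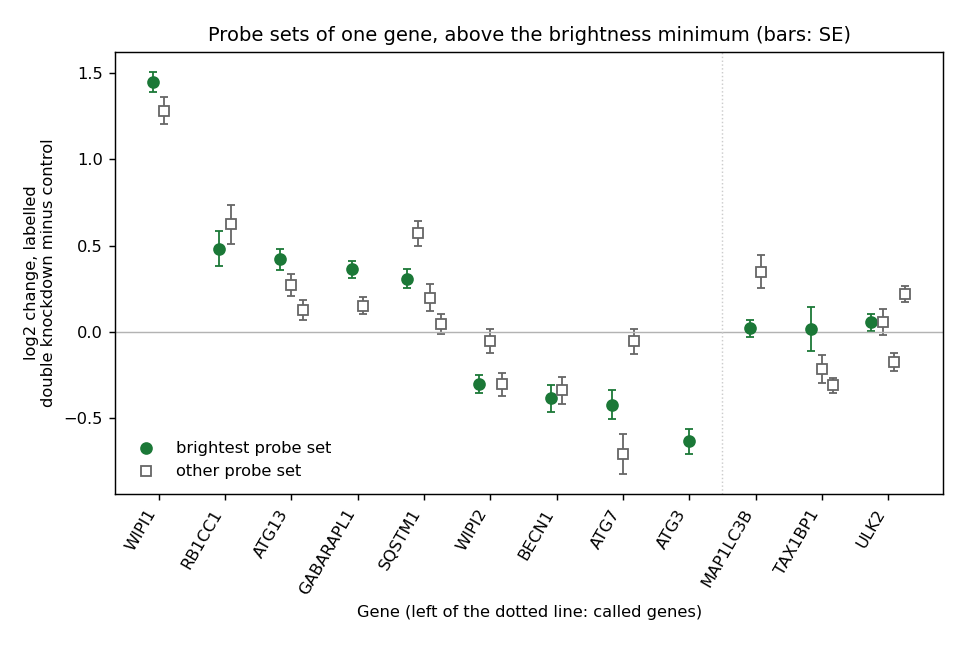
Log2 change on each probe set above the brightness minimum (vertical axis, arrays labelled double knockdown minus control) for the 9 called genes, left of the dotted line, and for MAP1LC3B, TAX1BP1 and ULK2. Filled points are the brightest probe set, open squares the others, and bars the standard errors from the fit over all named probe sets. Those of WIPI1 give 1.45 and 1.28, while those of ATG7 spread from -0.71 to -0.06.

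Known regulators group these genes in other ways. The counts that follow are to be read against the 9.40% of all genes tested that were called higher and the 6.59% called lower. Of the 38, 12 were listed as known targets of ATF4 or CHOP in starved mouse fibroblasts: 1 rose (SQSTM1, 8.33%), 3 fell (ATG3, ATG7 and BECN1, 25.0%) and their median log2 change was 0.02. A list of known targets of TFEB, the factor that drives lysosomal and autophagy genes, held 4 of the 38: SQSTM1, UVRAG, WIPI1 and MAP1LC3B. SQSTM1 and MAP1LC3B are in both sets. Of these 4, WIPI1 and SQSTM1 rose (50%), none fell and the median was 0.24. Both lists were chosen with earlier results known and may leave out other targets among the 38, so the counts depend on that choice. The transcription factors themselves were in a list of 11 genes, of which 3 rose (27.3%) and 2 fell (18.2%). DDIT3, which encodes CHOP, read 99.2 and 97.7 in the control and 843 and 994 on the labelled arrays, a log2 change of 3.02 ± 0.10 SE (limma adjusted p = 1.33e-05). XBP1, a factor of the unfolded protein response, rose by 1.02 on the log2 scale (limma adjusted p = 0.00063, or by 0.54 as the mean of its probe sets) and ATF4 by 0.39 (0.022). FOXO1, a factor that activates autophagy genes, fell by 0.47 (limma adjusted p = 0.0116), as did FOXO3, its relative, by 0.49 (0.0223). TFEB read 102.3 and 105.5 against 109.2 and 109.0, a log2 change of 0.06 (limma adjusted p = 0.687). FOXO3 and TFEB were named after their values were seen. Without double knockdown replicate 1 or 2 the calls of ATF4, FOXO1 and FOXO3 were lost (limma adjusted p up to 0.191, 0.102 and 0.16), and those of ATF4 and FOXO3 also without control replicate 1. ATF4 was likewise not called with a constant of 1 (limma adjusted p = 0.053), nor FOXO3 with no brightness filter (0.0647) or with the mean of its probe sets (0.0688).

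Upstream of ULK1, 24 genes of the kinases that sense nutrients and energy were listed and tested, and 5 rose (20.8%, against 9.40% of all genes tested) and 2 fell (8.33%, against 6.59%), with a median log2 change of 0.02. TRIB3, an inhibitor of AKT, read 852 and 634 in the control and 1591 and 1478 on the labelled arrays, a rise of 1.05 ± 0.14 SE on the log2 scale (limma adjusted p = 0.00294). SESN2, a sestrin that holds mTORC1 in check, rose by 0.93 (limma adjusted p = 0.00168), RRAGD, a GTPase that brings mTORC1 to the lysosome, by 0.69 (0.00359) and DDIT4, the mTORC1 inhibitor REDD1, by 0.67 (0.00725). RHEB, the GTPase that activates mTORC1, also rose, and SESN1 and AKT1S1 fell. These 3 were named after their values were seen. The call of DDIT4 was lost without double knockdown replicate 1 (limma adjusted p = 0.0621).

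Of 25 other genes of autophagosome formation and fusion, 23 were tested, 2 rose (8.70%, against 9.40% of all genes tested), 3 fell (13.0%, against 6.59%) and the median log2 change was -0.01. TMEM41B, a scramblase of the endoplasmic reticulum that works with VMP1, read 335 and 288 in the control and 745 and 775 on the labelled arrays. Its rise was 2.37-fold (log2 change 1.25 ± 0.10 SE, limma adjusted p = 0.000305) and was called under every alternative, while VMP1 itself, read from 1 dim probe set, was not called. RAB7A, the GTPase of late endosomes, fell by 0.47 on the log2 scale (limma adjusted p = 0.0161), EI24 by 0.39 (0.0277) and the SNARE YKT6 by 0.35 (0.0343). The tether EPG5, named after its values were seen, was the other riser. The calls of RAB7A, EI24 and YKT6 were lost without control replicate 1 or either double knockdown array (limma adjusted p up to 0.134, 0.198 and 0.21), and those of EI24 and YKT6 also with a constant of 1 (0.0593 and 0.0551). The log2 change of RAB7A was -0.07 as the mean of its probe sets and 0.18 when probe sets that may match several transcripts were left out, neither of them called (limma adjusted p = 0.443 and 0.261).

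Of 19 other selective receptors, 18 were tested, 3 rose (16.7%, against 9.40% of all genes tested) and none fell (6.59% of all genes), with a median log2 change of 0.03. BCL2L13 and BNIP3, receptors for mitochondria, rose by 0.54 (limma adjusted p = 0.0128) and 0.48 (0.0154) on the log2 scale, and RETREG1, a receptor for the endoplasmic reticulum, by 0.35 (0.0286). The call of RETREG1 was lost whichever array was left out, that of BNIP3 without control replicate 1 or either double knockdown array, and that of BCL2L13 without double knockdown replicate 2 (limma adjusted p up to 0.213, 0.136 and 0.12). As the mean of its probe sets, RETREG1 had a log2 change of 0.06 (limma adjusted p = 0.517). BCL2L13 had 0.20 in that setting (limma adjusted p = 0.0689) and 0.19 without probe sets that may match several transcripts (0.253). Of 22 lysosomal genes, 20 were tested and 1 rose (5%, against 9.40% of all genes tested), with a median log2 change of 0.02. That gene was CTSB, the protease cathepsin B, with a log2 change of 0.37 (limma adjusted p = 0.0304), a call lost without control replicate 2 or either double knockdown array (limma adjusted p up to 0.203). It was also lost with a constant of 1 (limma adjusted p = 0.0657), with the mean of the probe sets (log2 change 0.20, limma adjusted p = 0.0888) and without probe sets that may match several transcripts (0.27, 0.0718).

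**Figure D4:**
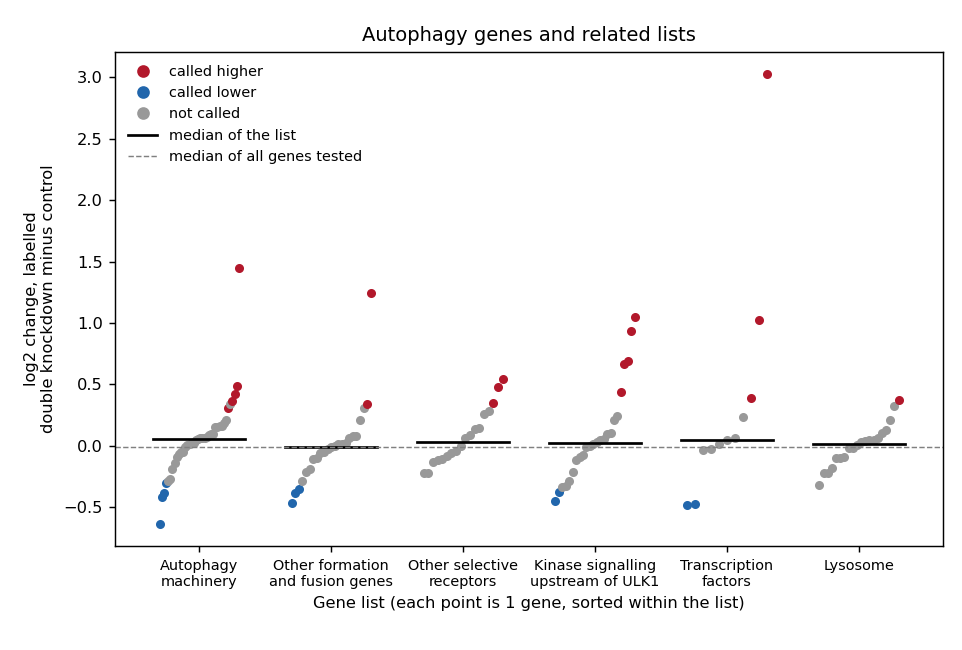
Log2 change of every tested gene (vertical axis, arrays labelled double knockdown minus control) in the autophagy machinery and 5 related lists, 1 point a gene, sorted within the list. Red points were called higher, blue lower and grey not called, black bars are list medians and the dashed line the median of all genes tested. DDIT3, at 3.02, and TMEM41B, at 1.25, stand above their lists, and the list medians lie between -0.01 and 0.06.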

How the data were processed

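The authors deposited 1 intensity per probe set for each of the 4 arrays, linear by its range. The summarisation and normalization behind it are not given in the sources used here. Array medians were 14.5 to 14.7, with 95th percentiles of 646 to 664 over 54675 probe sets, and no scaling was added. Groups came from the sample titles. Probe sets naming 1 gene (41091) were used, with symbols updated through RefSeq, and those naming several (1801, among them some of VMP1 and GABARAPL1) or none (11721) were not. Each gene took its brightest probe set, and the 12965 genes with a mean at or above the median, 14.6, were tested on log2(intensity + 16), so folds understate dim genes. The test was limma 3.58.1 in R 4.3.3 (all 4 arrays, two-sided, constant prior, moderated SE), with Benjamini-Hochberg adjustment over all genes tested. Values of single probe sets come from the same test over all probe sets naming 1 gene, without the brightness filter.

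The members, the lists and the motifs were chosen with earlier results of these data known, and the motifs GGGGCGGGG, CCAAT, TGACGTCA and the longer ATF6 element after the promoters were read. Named were CBL, CBLB, all 38 genes and up to 4 called genes with the smallest p of each related list. Per-array values are given for the called genes of the 38 and for the gene of each class with the smallest p. They are also given for some other genes, outside that rule. On simulated data with the spread fitted to this comparison (12965 genes, 200 changed), 49.2% of the log2 changes of 0.5 were recovered, 98.5% of those of 1 and 100% of those of 2, and unchanged genes made up 7.26% of all calls. Far more genes were called in the real data, 1219 higher and 855 lower. The simulated noise also came from the fitted model itself, so these rates need not hold for the real calls. The alternatives were other constants (1 and 64), brightness filters, scalings, probe set rules, a variance trend, a replicate block and leaving out each array. The mean of the probe sets took in those below the brightness minimum.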

Additional observations from a re-analysis of the deposited data

How the results depend on the processing

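Of 130 values of the 9 called genes under the 15 alternatives, 95 kept direction and call, 35 lost the call and 0 changed sign. The calls of WIPI1 (log2 change 1.13 to 1.60) and ATG3 (-0.71 to -0.36, with no value where probe sets that may match several transcripts were left out) were kept in all. The number called higher, 5 as reported, was 3 with no brightness filter and 2 without probe sets that may match several transcripts (27 of the 38 tested), and 1 to 5 when 1 array was left out. The number called lower, 4 as reported, was 2 with a constant of 1, 2 with the mean of the probe sets, 1 without probe sets that may match several transcripts, and 1 to 3 when 1 array was left out. Other settings gave larger counts. The number higher was 6 with the stricter brightness filter, median centring, cyclic loess, the mean of the probe sets and the replicate block. The number lower was 5 with quantile normalization. The median of the 38 stayed above 0 throughout, between 0.02 and 0.08. The cause of the lost calls was not tested. Some alternatives also differed in the number of arrays or of genes tested.

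The sample numbers in the titles correlated across genes at r = 0.244 in their deviations from the group means, with 2 pairs, and share only a number. With the replicate block 6 of the 38 were higher (ATG101 added) and 4 lower, beside 1424 and 1081 of all genes. Over all genes, 1219 higher and 855 lower became 928 and 601 with no brightness filter, 485 and 192 without double knockdown replicate 1, and 376 and 155 without double knockdown replicate 2. The higher share of the calls was then 71.6% and 70.8%, against 58.8%. PIK3R4 was called lower with no brightness filter and with quantile normalization.

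Uncalled genes near 0 changed sign in some alternatives: ATG5 with quantile normalization (-0.0057), PIK3C3 with cyclic loess (0.013) and with the mean of the probe sets (0.011), TAX1BP1 (-0.17) and TFEB (-0.0498) with the mean of the probe sets, and AMBRA1 (0.055), NBR1 (-0.036), CALCOCO2 (-0.012) and TAX1BP1 (-0.31, now called lower, limma adjusted p = 0.0437) without probe sets that may match several transcripts. RAB7A, called lower, was then at 0.18. When 1 array was left out, the log2 change ranged from -0.33 to 0.043 for ULK1, -0.097 to 0.23 for ATG14, -0.16 to 0.066 for AMBRA1, -0.17 to 0.068 for ATG9A, -0.0056 to 0.046 for MAP1LC3B, -0.013 to 0.11 for GABARAP, -0.056 to 0.18 for GABARAPL2, -0.13 to 0.16 for TAX1BP1, -0.18 to 0.16 for PIK3C3, -0.17 to 0.022 for ATG4B, -0.21 to 0.025 for ATG4C, -0.058 to 0.073 for ATG5 and -0.0070 to 0.32 for VMP1.

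With 2 samples a group, a gene not called is not shown to be unchanged. Signal over background limits the genes that were dim on the probe set used, among them ULK1, ULK2, VMP1, ATG16L1 and TECPR1.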
